A study of Mus musculus with 6 samples.

Results

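The 10 genes described here are the cytokine gene Tnf and 9 genes of the NF-kB system that NF-kB is known to switch on in many cells: Nfkbia, Nfkbiz, Nfkb1, Nfkb2, Relb, Tnfaip3, Bcl3, Birc3 and Tnip1. They were chosen by name from the gene symbols of the deposited table, and all 10 of 10 had a row among its 17564 genes. All 10 also passed the filter on low reads. The data are bulk RNA sequencing of whole back skin from wild-type C57BL/6 mice aged 8 weeks, in 2 groups of 3 samples. The 3 untreated samples (U1, U2 and U3) came from skin that was only shaved and depilated. The 3 treated samples (T1, T2 and T3) came from shaved and depilated skin that also received 3 µg of SspA, the V8 protease of Staphylococcus aureus, and 10 µg of house dust mite extract (HDM). Both were applied on the skin surface, applied again 3 days later, and the skin was taken 7 days after the first application. When untreated skin was collected is not stated in the labels. Nor do the labels tie each sample to its own animal, so the p-values here measure only the spread between samples, which may be technical. The comparison asked how the RNA of these genes differed between treated and untreated skin.

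TNF is a secreted cytokine of macrophages, neutrophils, T cells, mast cells and keratinocytes. It binds receptors that recruit adaptor proteins and kinases, which free NF-kB dimers to enter the nucleus and switch on inflammatory genes. Many of the genes that NF-kB switches on act back on the pathway: IkB proteins bind NF-kB again, ubiquitin-editing proteins quiet the receptor complex, and precursor subunits renew the pool. In skin this balance is known to matter, since loss of several of these brakes leads to inflamed epidermis in mice.

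Upstream sequence is shown for the 2 genes that passed the test below, Tnf and Birc3, and for 2 feedback inhibitors that did not, Nfkbia and Tnip1, so that the letters can be read beside the values. Each is the 250 bases before the start of the deposited transcript, written 5′ to 3′ along the gene, from RefSeq on GRCm38.p6 (mm10). Capitals mark a match to a motif searched. Some windows overlap annotated exons: 16 of the 250 bases for Birc3 and none for Tnf, Nfkbia and Tnip1, and, among windows searched but not shown, all 250 for Nfkb2, 110 for Tnfaip3 and 15 for Bcl3.
Tnf (chr17:35202008-35202257, minus strand): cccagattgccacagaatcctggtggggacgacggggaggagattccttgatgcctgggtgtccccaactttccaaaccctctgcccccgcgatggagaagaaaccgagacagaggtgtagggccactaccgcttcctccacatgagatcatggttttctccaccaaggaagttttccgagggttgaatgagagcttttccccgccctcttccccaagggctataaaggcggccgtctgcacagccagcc
Birc3 (chr9:7873171-7873420, minus strand): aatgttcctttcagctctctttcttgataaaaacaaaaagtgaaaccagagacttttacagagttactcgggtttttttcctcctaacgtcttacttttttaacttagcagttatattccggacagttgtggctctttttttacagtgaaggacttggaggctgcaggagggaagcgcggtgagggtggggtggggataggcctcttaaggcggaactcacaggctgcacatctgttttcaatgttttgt
Nfkbia (chr12:55492648-55492897, minus strand): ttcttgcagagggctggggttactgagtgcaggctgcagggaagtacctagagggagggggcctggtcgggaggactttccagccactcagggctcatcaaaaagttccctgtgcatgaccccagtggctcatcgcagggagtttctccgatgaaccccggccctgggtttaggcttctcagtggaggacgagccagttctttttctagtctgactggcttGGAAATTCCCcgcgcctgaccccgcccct
Tnip1 (chr11:54962941-54963190, minus strand): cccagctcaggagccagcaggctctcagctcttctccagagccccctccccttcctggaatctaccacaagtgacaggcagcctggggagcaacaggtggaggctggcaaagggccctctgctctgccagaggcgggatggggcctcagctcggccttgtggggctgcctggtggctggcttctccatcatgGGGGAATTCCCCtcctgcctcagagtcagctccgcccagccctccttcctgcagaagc
The table of promoters held a window that begins at the deposited transcript for 7 of the 10 genes and none for Nfkbiz, Nfkb1 and Relb. Both strands were searched for the kappa-B consensus, which is the binding motif of NF-kB, and for TGANTCA, the AP-1 motif. The kappa-B consensus occurred in 4 of the 7 windows, and in 7.25% of all 32851 windows of the same length. Nfkbia held 1 match, from 29 to 20 bases upstream. Tnip1 held 3 overlapping matches between 58 and 47 bases upstream. Nfkb2 held 3 matches, of which 2 overlapped between 39 and 29 bases upstream and the other lay from 11 to 2, and Tnfaip3 held 2, from 125 to 116 and from 12 to 3. Tnfaip3 also held the AP-1 motif from 136 to 130 bases upstream, which 6.75% of all windows contain. The windows of Tnf, Birc3 and Bcl3 held neither motif in these letters. The genes with a match were therefore Nfkbia, Tnip1, Nfkb2 and Tnfaip3, and a match is a description of letters, not a site shown to be bound.

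Tnf and Birc3 rose in treated skin, and the other 8 genes did not pass the test. Of 10 genes, 2 were higher and 0 lower by limma at adjusted p under 0.05 (Benjamini-Hochberg over 15534 genes), where 9.26% of all tested genes were higher and 7.23% lower. At an unadjusted p under 0.05, 4 were higher and 0 lower. The share of all tested genes at that unadjusted level was not counted, so these 4 are not read as a result. On whole reads, edgeR and DESeq2 each called 2 higher and 0 lower. The treated values lay above all untreated values for 6 of the 10 genes, namely Tnf, Nfkbiz, Nfkb1, Nfkb2, Bcl3 and Birc3, against 21.7% of all tested genes, and below them for 0, against 15.6% (37.3% in either direction). The median log2 fold change of the 10 genes was 0.15, beside 0.03 over all tested genes. The count changed when single libraries were left out: without U1 it was 0 higher, and without U2 or without T2 it was 1. Higher calls over all tested genes fell as well, from 1439 to 675 without U1, 751 without U2 and 597 without T2.

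**Figure D1:**
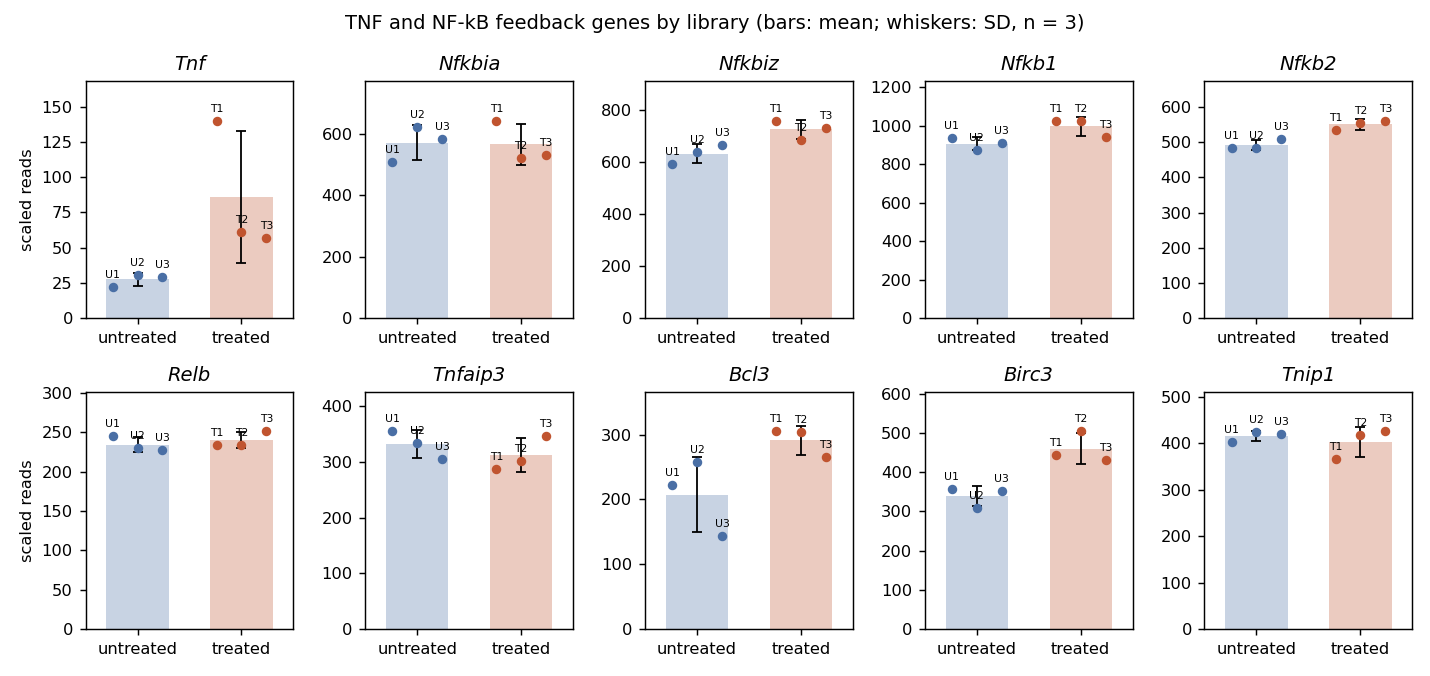
Scaled reads of each of the 10 genes in the 3 untreated (U1 to U3) and 3 treated (T1 to T3) libraries, with bars for the mean and whiskers for the SD (n = 3), each panel on its own axis from 0. Tnf stands out with T1 at 140.22, T2 at 60.99 and T3 at 57.14, above all untreated libraries, whereas Nfkbia, Relb, Tnfaip3 and Tnip1 overlap between the groups.

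**Figure D2:**
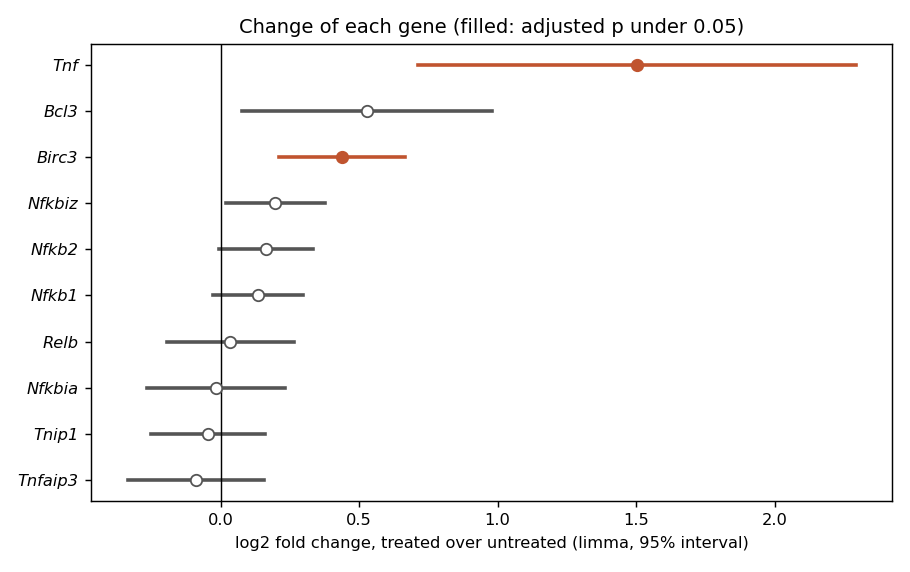
Log2 fold change of each gene in treated over untreated skin (limma on the log2(value + 1) scale) with its 95% interval, filled where adjusted p was under 0.05. The interval of Tnf runs from 0.71 to 2.29, and those of the genes from Nfkb2 down to Tnfaip3 include 0.

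Facts of the whole series bear on these values. Recovered whole reads ran from 4928245 in U2 to 7545567 in T3, the deepest library, and 2562 of 15534 tested genes (16.5%) were called in either direction. Values are scaled reads, that is reads divided by a size factor for each library, and 1 read was worth between 0.84 scaled reads in T3 and 1.29 in U2. Reads per base of transcript never exceeded 0.923 in any library, and genes with many reads per base may be compressed if reads at 1 position were counted once, which no source used here states and which was not tested. Of the 10 genes, Nfkbia (0.333 reads per base on average) and Nfkb1 (0.216) were above 0.2, as were 3003 genes in all.

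Tnf, the ligand of the group, lies on chromosome 17 from 35199367 to 35202007 on the minus strand of mm10. Its scaled reads were 21.98, 30.88 and 29.54 in U1, U2 and U3, and 140.22, 60.99 and 57.14 in T1, T2 and T3. Every treated library was above every untreated one, and T1 was more than 2 times the other treated libraries. The mean went from 27.5 ± 4.8 to 86.1 ± 46.9 scaled reads (SD, n = 3), a log2 fold change of 1.503 ± 0.35 SE, or 2.83-fold (95% interval 1.64 to 4.91; limma, adjusted p = 0.0223). Few reads stand behind it, 70 over the untreated libraries and 248 over the treated. The adjusted p of Tnf over the alternatives ran from 0.0016 to 0.0764, and Tnf was not called without U1 (0.0764), by limma-voom (0.0545) or when limma assumed 1 spread for low and high genes (0.0501). Without T1 the log2 fold change of Tnf was 1.09 (limma, adjusted p = 0.0459).

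None of the NF-kB subunit genes Nfkb1, Nfkb2 and Relb passed the test. Nfkb1, which encodes the precursor of the DNA-binding subunit of the classical dimer (chromosome 3, 135584655 to 135691547, minus strand), had 937.29, 872.24 and 910.06 scaled reads in U1 to U3 and 1021.1, 1025.9 and 940.21 in T1 to T3. The groups of Nfkb1 did not overlap, but U1 and T3 were separated by less than the spread within either group, and the log2 fold change of 0.13 (95% interval -0.03 to 0.30) did not pass (limma, adjusted p = 0.236). Nfkb2 encodes the precursor that is processed when receptors of the lymphotoxin type act (chromosome 19, 46304737 to 46312090, plus strand). It had 482.38, 483.72 and 507.86 scaled reads in untreated and 533.73, 555.42 and 561.27 in treated libraries. Its groups did not overlap either, with a log2 fold change of 0.16 (95% interval -0.01 to 0.33; limma, adjusted p = 0.172). Nfkb2 shares up to 531 exon bases with Psd and a gene model on the opposite strand in GENCODE M21, and whether counting used strand is not given in the sources used here. Relb, the partner of the processed Nfkb2 product (chromosome 7, 19606223 to 19629438, minus strand), had 245.04, 230.28 and 227.23 scaled reads in untreated and 234.07, 234.15 and 251.23 in treated libraries. The groups of Relb overlapped, at a log2 fold change of 0.03 (95% interval -0.20 to 0.26, or 0.873-fold to 1.201-fold; limma, adjusted p = 0.855).

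Among the IkB proteins, the cytoplasmic inhibitor gene Nfkbia showed no change that passed, and the nuclear IkB genes Nfkbiz and Bcl3 had higher means in treated skin without passing. Nfkbia makes the inhibitor that is destroyed and then made again each time NF-kB is activated (chromosome 12, 55489409 to 55492647, minus strand). It had 509.85, 621.37 and 583.99 scaled reads in U1 to U3 and 643.42, 521.66 and 531.86 in T1 to T3. T1 held the highest value of Nfkbia and T2 and T3 lay among the untreated ones, with a log2 fold change of -0.02 (95% interval -0.27 to 0.23; limma, adjusted p = 0.937). The sign for Nfkbia was positive under 7 of 22 alternatives, so no direction is given. Nfkbiz encodes a nuclear cofactor that NF-kB dimers need at a set of late genes, and it is known to be induced in keratinocytes by interleukin-17 and interleukin-36 (chromosome 16, 55811377 to 55838641, minus strand). It had 593.36, 636.81 and 665.79 scaled reads in untreated and 758.76, 683.93 and 731.00 in treated libraries, with no overlap. The log2 fold change of Nfkbiz was 0.20 (95% interval 0.02 to 0.38; limma, adjusted p = 0.127), and it was not called under any of the 22 alternatives (adjusted p 0.0801 to 0.431). Bcl3, a nuclear IkB protein that binds dimers made from the Nfkb1 and Nfkb2 products (chromosome 7, 19808462 to 19822755, minus strand), had 221.96, 257.30 and 143.16 scaled reads in untreated and 305.31, 303.85 and 265.51 in treated libraries. U3 was far below the other libraries, and U2 and T3 were close. The log2 fold change of Bcl3 was 0.53 ± 0.20 SE (limma, adjusted p = 0.105), and 0.28 without U3 (adjusted p = 0.199). Bcl3 passed in the 4 libraries of like depth (U1, U3, T1 and T2; log2 fold change 0.77, adjusted p = 0.0293) and with the replicate number as a block (0.0498), among adjusted p-values of 0.0293 to 0.24. It shares 161 exon bases with a gene on the opposite strand.

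Tnfaip3 and Tnip1, the ubiquitin-editing brake and its binding partner, did not pass the test. Tnfaip3 trims and adds ubiquitin chains on kinases of the receptor complex (chromosome 10, 19000910 to 19015410, minus strand). It had 354.92, 334.49 and 305.63 scaled reads in U1 to U3 and 287.22, 301.67 and 346.17 in T1 to T3, and the groups overlapped. Its log2 fold change was -0.09 (95% interval -0.34 to 0.15; limma, adjusted p = 0.615). Tnip1 helps Tnfaip3 reach its targets (chromosome 11, 54910787 to 54962940, minus strand). It had 403.27, 424.54 and 420.38 scaled reads in untreated and 366.38, 418.20 and 426.00 in treated libraries. T1 was the lowest library of Tnip1 and the other treated ones lay within the untreated range or just above it, at a log2 fold change of -0.05 (95% interval -0.25 to 0.16; limma, adjusted p = 0.771). The upper bounds of these intervals correspond to 1.11-fold for Tnfaip3 and 1.12-fold for Tnip1.

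Birc3 rose. It encodes a ubiquitin ligase that is recruited to the TNF receptor, protects cells from TNF-induced death and keeps the kinase of the Nfkb2 branch low (chromosome 9, 7848701 to 7873170, minus strand). It had 356.02, 308.76 and 352.21 scaled reads in U1 to U3 and 444.40, 504.24 and 431.04 in T1 to T3, with every treated library above every untreated one. The mean went from 339 ± 26.2 to 459.9 ± 39 scaled reads (SD, n = 3), a log2 fold change of 0.44 ± 0.10 SE, or 1.36-fold (95% interval 1.16 to 1.59; limma, adjusted p = 0.0214). The adjusted p of Birc3 was 0.0527 without U1, 0.0619 without U2 and 0.089 without T2, within a range of 0.0187 to 0.089 over the alternatives. The authors' deposited table gives a log2 fold change of 1.61 for Tnf (adjusted p = 0.0016) and 0.40 for Birc3 (adjusted p = 0.0374), and none of the other 8 genes has an adjusted p under 0.05 there.

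On a scale per transcript length and library depth (RPKM), untreated skin held most of Nfkbia (57.4 ± 5.7, SD, n = 3), then Nfkb1 (34.95 ± 1.3), Nfkbiz (25.96 ± 1.5), Nfkb2 (25.6 ± 0.75), Tnip1 (23.3 ± 0.63), Birc3 (19.1 ± 1.5), Bcl3 (17.9 ± 5.1), Relb (16.9 ± 0.69), Tnfaip3 (11.9 ± 0.89) and Tnf (2.63 ± 0.46). Neighbours in that order whose libraries overlapped were Nfkbiz and Nfkb2, Birc3 and Bcl3, and Bcl3 and Relb. In treated skin the ends of the order were the same, with Nfkbia at 56.8 ± 6.8 and Tnf at 8.25 ± 4.5 RPKM. There Birc3 (25.9 ± 2.2) and Bcl3 (25.2 ± 2.0) had higher means than Tnip1 (22.6 ± 1.8), though Bcl3 and Tnip1 overlapped, as did Nfkbiz and Nfkb2, Nfkb2 and Birc3, and Birc3 and Bcl3. The treated libraries of Tnf and Tnfaip3 (11.2 ± 1.1) overlapped, T1 of Tnf reaching 13.4 RPKM.

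Whether 2 genes changed to a different extent was asked with the ratio of their values inside each library, which no scaling between libraries can alter except through the pseudocount. With 3 libraries against 3 the smallest p an exact two-sided permutation test allows is 0.1, and adjusted over the 5 pairs none could pass. The log2 ratio of Tnf to Nfkbia was -4.47, -4.29 and -4.26 in U1 to U3 and -2.19, -3.08 and -3.20 in T1 to T3, a difference of 1.52 with no overlap (exact permutation p = 0.1, adjusted 0.167). The log2 ratio of Birc3 to Birc2, its neighbouring paralog that acts in the same complex, went from -0.69 ± 0.05 to -0.34 ± 0.12 (SD, n = 3), again with no overlap (difference 0.35, exact permutation p = 0.1, adjusted 0.167). Birc2 itself had a log2 fold change of 0.09 (limma, adjusted p = 0.475). The ratio of the nuclear to the cytoplasmic IkB gene, Nfkbiz to Nfkbia, was 0.22, 0.04 and 0.19 in untreated and 0.24, 0.39 and 0.46 in treated libraries, where U1 and T1 almost touched (difference 0.21, exact permutation p = 0.1, adjusted 0.167). The ratios of Nfkb2 to Nfkb1 (difference 0.03, exact permutation p = 0.8) and of Relb to Rela (difference -0.04, exact permutation p = 0.8) overlapped between the groups.

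**Figure D3:**
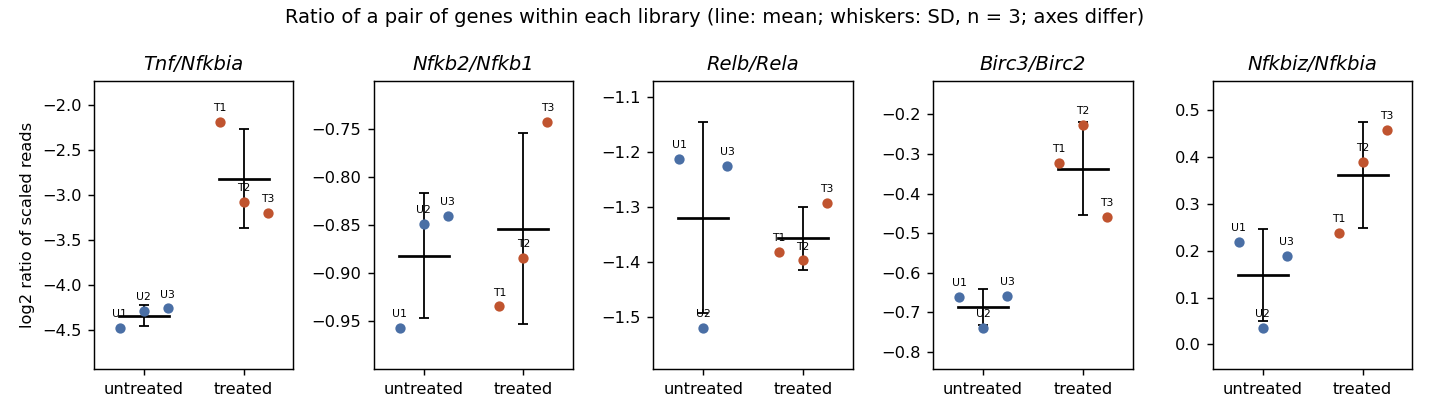
Log2 ratio of the scaled reads of 5 pairs of genes within each library, with a line for the group mean and whiskers for the SD (n = 3), each panel on its own axis. The ratios of Tnf to Nfkbia, Birc3 to Birc2 and Nfkbiz to Nfkbia do not overlap between the groups, and the other ratios do.

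The rest of the pathway was read through 6 lists with 108 entries, where 107 matched a row, 99 passed the filter, 18 were higher and 7 lower. Over all tested genes 9.26% were higher and 7.23% lower. These lists were described by counts and medians only. Their counts at an unadjusted p have no share of all tested genes beside them and are not read as results. Of the other ligands of the TNF superfamily, 3 of 12 tested were higher and 0 lower by limma, beside 9.26% and 7.23% of all tested genes. At an unadjusted p under 0.05 the counts were 5 higher and 0 lower. By edgeR and by DESeq2 0 ligands were lower, and the median was 0.33. Ltb, which forms the membrane lymphotoxin, went from 23.08, 14.15 and 31.81 scaled reads in U1 to U3 to 114.21, 90.39 and 63.02 in T1 to T3 (log2 fold change 1.94, limma, adjusted p = 0.00801). Tnfsf14, another ligand of the lymphotoxin beta receptor (1.97, adjusted p = 0.0214), and Tnfsf11, the ligand of the receptor RANK (2.21, adjusted p = 0.0123), also rose. Tnfsf11 rested on 15 untreated and 93 treated reads, passed the filter through its treated libraries, and was not called without T2 (0.0501). Tnfsf14 had 6, 13 and 18 reads in U1, U2 and U3 and also needed its treated libraries to pass the filter. The calls of Tnfsf11 and Tnfsf14 therefore add no support to the count of ligands. Tnfsf14 was not called without U1 (0.0549), T1 (0.07) or T2 (0.0809). Lta, Tnfsf4, Fasl and Cd40lg were below the filter, summing to 14, 4, 0 and 4 untreated reads and 34, 7, 20 and 35 treated reads, and Cd70 is not analysed here.

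Of 22 tested receptors, 2 were higher and 4 lower, beside 9.26% and 7.23% of all tested genes, with a median of -0.05. Tnfrsf1b, the TNF receptor found mainly on leukocytes and endothelium, had 406.56, 352.50 and 435.15 scaled reads in untreated and 705.61, 751.46 and 514.22 in treated libraries (log2 fold change 0.71, limma, adjusted p = 0.0148; 0.0521 without T1 and 0.0563 without T2). Tnfrsf1a, the TNF receptor of most cells, had a log2 fold change of -0.12 (adjusted p = 0.432). Tnfrsf10b, a receptor of the death ligand TRAIL, rose (0.57, adjusted p = 0.0302). Tnfrsf4 (-0.76, adjusted p = 0.0233) and Tnfrsf18 (-0.46, adjusted p = 0.0261), costimulatory receptors of T cells, fell, as did Tnfrsf19 (-0.73, adjusted p = 0.0275) and the nerve growth factor receptor gene Ngfr (-0.79, adjusted p = 0.033). Of these 6 calls none held when T2 was left out (0.0563 to 0.116), and without T1 none held either (0.0502 to 0.0805). Without U1 only Tnfrsf1b was called among them (0.0468), and Tnfrsf10b (0.063) and Tnfrsf18 (0.0511) were not called with the replicate number as a block.

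Of 23 tested adaptors and kinases, which act between receptor and nucleus, 1 was higher and 1 lower, beside 9.26% and 7.23% of all tested genes. At an unadjusted p under 0.05 the counts were 5 higher and 1 lower, and the median was 0.05. The called genes were Traf4 (0.53, limma, adjusted p = 0.0351), a receptor-associated factor of epithelia, and Traf5 (-0.61, adjusted p = 0.0381), an adaptor of lymphocyte receptors. Traf4 lost its call whichever single library was left out (0.0505 to 0.0966). Traf5 lost its call without U1, U2, U3, T1 or T2 (0.0512 to 0.132) and kept it only without T3 (0.016). With the replicate number as a block neither was called (0.0534 and 0.0619). The genes of the IkB kinase, Chuk (0.03), Ikbkb (-0.02) and Ikbkg (0.003), and the Nfkb2-branch kinase gene Map3k14 (-0.001) had log2 fold changes near 0. Of the 5 other subunits and IkB genes, 0 were called in either direction by limma (1 higher and 1 lower at an unadjusted p under 0.05; edgeR 0, DESeq2 1 higher). The gene called by DESeq2 was Nfkbid, a nuclear IkB gene, with 62.63, 91.34 and 80.67 scaled reads in untreated and 243.12, 126.33 and 101.67 in treated libraries (0.91, limma, adjusted p = 0.0736; 0.0255 without T3). T1 was the highest library for Nfkbid as it was for Tnf. Rela, the main activating subunit, had a log2 fold change of 0.07 (adjusted p = 0.648) and Rel 0.13 (adjusted p = 0.579).

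Among 17 other feedback inhibitors and survival genes, 2 were higher and 1 lower, beside 9.26% and 7.23% of all tested genes, and the median was 0.08. Zc3h12a, an RNase that degrades cytokine messages and is itself an NF-kB target, had 477.99, 573.77 and 578.30 scaled reads in untreated and 884.28, 784.13 and 800.74 in treated libraries (log2 fold change 0.60, limma, adjusted p = 0.00631), and it was called when any single library was left out. N4bp1, a ubiquitin-binding inhibitor of NF-kB, rose (0.33, adjusted p = 0.0162; 0.0666 without U1 and 0.0652 without T2). Tnip3, a relative of Tnip1, fell (-1.11, adjusted p = 0.0307) and was not called without U1, U2, U3, T1 or T2 (0.0563 to 0.0903). Zfp36, which destabilises Tnf messages, had a log2 fold change of -0.02 (adjusted p = 0.887), and Cyld, a deubiquitinase of the pathway, -0.11 (adjusted p = 0.48).

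Of the 6 lists, inducible NF-kB target genes had the largest median, with 10 of 20 tested higher and 1 lower, beside 9.26% and 7.23% of all tested genes, and a median log2 fold change of 0.75. The 5 with the smallest p were Saa3, an acute-phase protein (log2 fold change 2.35, limma, adjusted p = 0.00248), the neutrophil chemoattractant Cxcl2 (4.72, adjusted p = 0.00471), the vessel adhesion molecule Vcam1 (1.49, adjusted p = 0.00698), the cytokine Il1b (2.61, adjusted p = 0.00789) and the iron-binding Lcn2 (1.44, adjusted p = 0.00946). Cxcl2 went from 6.59, 2.57 and 5.68 scaled reads in U1 to U3 to 499.81, 108.91 and 59.66 in T1 to T3, highest in T1 as Tnf was. Cxcl2 and Il6, which was also counted as higher, had at most 10 reads in any untreated library and passed the filter through the treated libraries. The log2 fold change of Cxcl2 was 3.85 without T1, 5.37 without T3, 3.98 with a pseudocount of 5 and 5.44 by DESeq2, and by limma-voom neither Cxcl2 (adjusted p = 0.0963) nor Il1b (0.066) was called. With reads estimated from filled positions Saa3 had a log2 fold change of 2.94. Ccl20 fell (-1.27, adjusted p = 0.039) and was not called without U1, U2, U3, T1 or T2 (0.0528 to 0.125). Without T2 the count of target genes higher was 5. That Il1b, Cxcl2 and other genes of this list were higher was known when the list was drawn up.

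**Figure D4:**
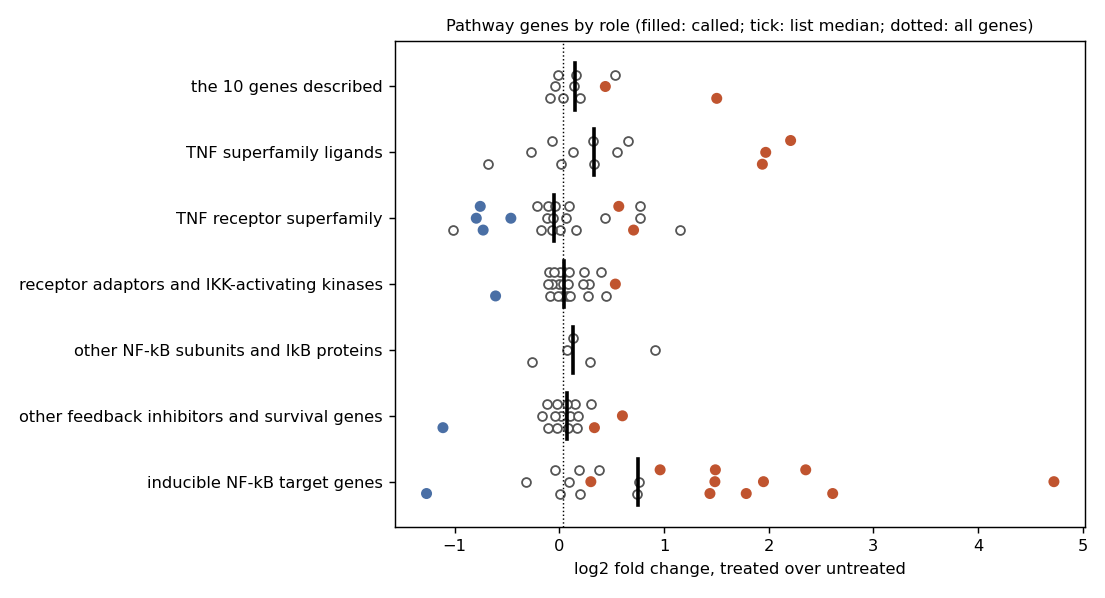
Log2 fold change (treated over untreated) of the 10 genes and of each tested gene in 6 lists of the pathway, filled orange where higher and blue where lower at adjusted p under 0.05, with a tick at each list's median and a dotted line at the median of all tested genes. Called genes at the largest values are ligands and target genes, while the adaptors and kinases lie between -0.61 (Traf5) and 0.53 (Traf4).

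The 5 tested genes whose profile over the 6 libraries was most like that of Tnf were taken by the root mean square difference of centred log2 values. They were Plaur, the urokinase receptor (difference 0.17), Nanos1 (0.18), 2810408I11Rik (0.18), Dnmt3l (0.23) and Clec7a, a beta-glucan receptor of myeloid cells (0.28). Plaur had 65.93, 69.47 and 67.03 scaled reads in U1 to U3 and 392.38, 178.61 and 135.28 in T1 to T3. All 5 had their highest value in T1, as Tnf did. They were chosen for a profile like that of Tnf over these libraries, so the shared peak is no separate finding. Of the 5, 2810408I11Rik was not called (limma, adjusted p = 0.0501). In U1 to U3, Nanos1 had only 12.09, 12.86 and 14.77 scaled reads and 2810408I11Rik 10.99, 12.86 and 14.77. Of the 9 other genes, Bcl3 (0.69), Birc3 (0.72) and Nfkbiz (0.76) were nearest to Tnf and Tnfaip3 was farthest (0.95). Bcl3 ranked 1473 and Birc3 1846 among all tested genes by nearness to Tnf.

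Markers of immune cells moved with treatment, and in whole skin more cells of a type and more RNA per cell cannot be told apart. Neutrophil markers were higher for 8 of 9 tested, where 9.26% of all tested genes were higher and 7.23% lower. Their summed level was 728 to 943 scaled reads in untreated libraries and 3993, 3362 and 1577 in T1, T2 and T3. Retnlg, Mmp8, Ngp and, among T cell markers, Cd8a had at most 8 reads in any untreated library. Ly6c2, a monocyte and macrophage marker counted as higher below, had 11, 4 and 9 reads in U1, U2 and U3. All of these genes passed the filter through the treated libraries, where they were high. Their calls therefore add no support to the marker counts. Ly6g, a defining marker of neutrophils, was at 0 in all untreated libraries. Monocyte and macrophage markers were higher for 5 of 12 tested, with sums of 4014 to 5242 in untreated and 5626 to 7601 in treated libraries, and T cell markers for 5 of 8 (Cd4, Cd8a, Cd28, Icos and Lck), with sums of 323 to 477 and 754 to 950. Of the genes of the CD3 complex, which define T cells, none was called: Cd3e (log2 fold change -0.49, limma, adjusted p = 0.103) and Cd3g (-0.22, adjusted p = 0.404) lay below untreated skin in every treated library, and Cd3d (0.92, adjusted p = 0.0747) lay above. Tnf and the neutrophil sum were both highest in T1 and lowest among treated libraries in T3. The part of these cells in the rise of Tnf, Birc3 and the target genes was not tested. Keratinocyte markers, which check the skin label, had sums that were 10480 to 11200 in untreated and 8461 to 10900 in treated libraries, with no marker at 0. Of these 6 markers Krt15 was lower (log2 fold change -0.45, limma, adjusted p = 0.00862), and Krt10 was below untreated skin in every treated library without passing (-0.21, adjusted p = 0.167). B cell markers stayed at 23.1 to 31.6 scaled reads in every library, mast cell markers were higher for 2 of 5 and endothelial markers for 2 of 5, fibroblast markers for 0 of 5 (limma; none lower). Inner root sheath genes of the hair follicle were higher for 6 of 6, with sums of 129 to 188 in untreated and 731 to 4207 in treated libraries. Of these, Krt25, Krt27 and Krt73 had at most 9 reads in any untreated library and also passed the filter through the treated libraries. Skeletal muscle markers were called for 0 of 5, but all 5 lay below untreated skin in every treated library, against 15.6% of all tested genes. Their sums were 9349 to 11270 in untreated and 6833 to 8776 in treated libraries. Adipocyte markers were lower for 3 of 5.

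**Figure D5:**
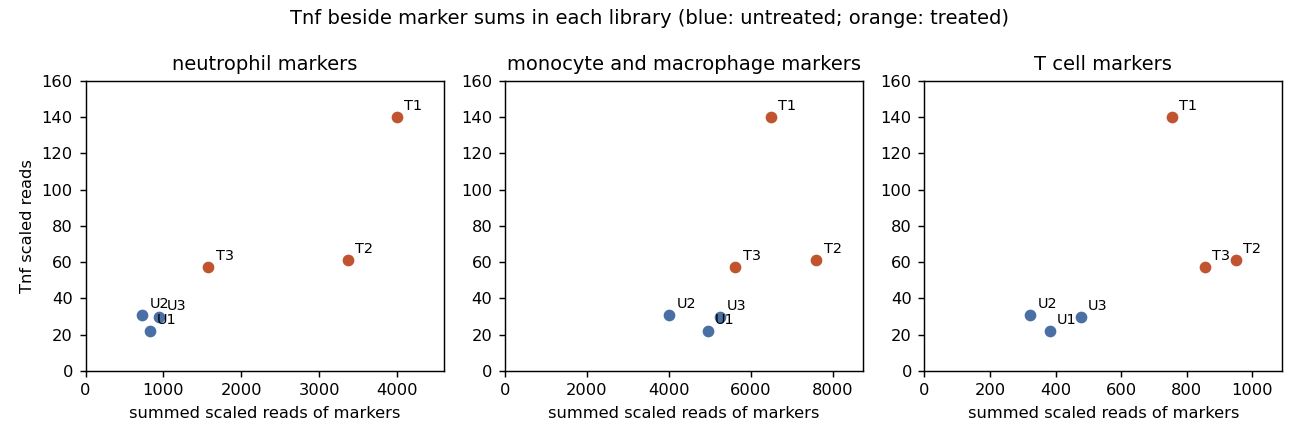
Scaled reads of Tnf (vertical axis) beside the summed scaled reads of neutrophil, monocyte and macrophage, and T cell markers (horizontal axes) in each of the 6 libraries, with both axes from 0. T1 is highest for Tnf and for the neutrophil sum (3993), while T2 is highest for the other marker sums.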

How the data were processed

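Whole skin of 6 mouse samples gave RNA for strand-marking mRNA libraries (labels' protocols). The submitters' processing notes name bcl2fastq 2.20.0.422, STAR, DESeq2 and the build mm10. The tool that counted reads and any filters it used are not given there. In the 1 table used, the authors' 6 sample columns are scaled signal per gene. It also holds log2 fold changes that the authors computed, and p-values that the authors computed, which are printed only where named. Divided by the step of its library, 100.0% of values came within 0.1 of a whole number, so whole reads could be recovered.

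A gene was tested when it met filterByExpr of edgeR 4.0.16 (at least 10 reads, 15 in total). A gene low in untreated skin could meet this filter through its treated libraries alone, and could then hardly be called lower. The test was limma 3.58.1 in R 4.3.3 on log2(value + 1), letting the spread follow the mean, with no covariate and p-values adjusted by Benjamini-Hochberg. Fold changes on that scale understate the change of low genes. Alternatives were edgeR and DESeq2 1.42.0 on recovered reads, other scalings, pseudocounts and filters, the replicate number as a block, and leaving out each library. The limma-voom fit and reads estimated from filled positions were added after seeing the data. Scripts were tested on simulated data. The 10 genes, the lists and the tests were chosen with earlier results of these data known. Named genes are the 10 genes, up to 5 called genes per list and direction by smallest p, the partners in the ratios and the 5 genes most like Tnf. Others, such as Nfkbid, Tnfrsf1a and the kinase genes, were picked after their values were seen. Plots were made with matplotlib 3.10.9 (Python 3.11.15).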

Additional observations from a re-analysis of the deposited data

How the results depend on the processing

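Under 22 alternatives Tnf and Birc3 stayed positive, and none of Nfkbia, Nfkbiz, Nfkb1, Nfkb2, Relb, Tnfaip3 and Tnip1 was called under any. The cause of each change below was not tested. Adjusted p under 0.01 left 362 higher and 288 lower genes in all, 0 of the 10 genes (Tnf at 1.503 with adjusted p = 0.0223, Birc3 at 0.44 with 0.0214), 1 ligand, 0 receptors in either direction, 0 adaptors and kinases in either direction, 1 feedback gene higher and 0 lower, and 5 target genes higher and 0 lower. Without a trend in the spread, limma called 922 and 640 genes, 0 of the 10 (Tnf 1.503, adjusted p = 0.0501; Birc3 0.44, adjusted p = 0.051), 1 receptor higher and 2 lower, 0 adaptors in either direction, 1 feedback gene higher and 0 target genes lower. With limma-voom 1 of the 10 was called, Birc3 (0.40, adjusted p = 0.0397), and Tnf was not (1.45, adjusted p = 0.0545). There 0 adaptors were higher and 5 target genes were. DESeq2 and the authors' deposited table each called 1 receptor and 1 other IkB gene higher, and gave Relb -0.0042 and -0.0072. In the 4 libraries of like depth Bcl3 was called (0.77, adjusted p = 0.0293), Nfkbia was 0.0863, Relb -0.0114, the difference in the Relb to Rela ratio was -0.17, 0 adaptors and 1 IkB gene were higher. With the trend in reads per base removed, Nfkbia was 0.0823 and Relb -0.034, with 1 receptor and 0 adaptors higher. Reads estimated from filled positions gave Nfkbia 0.018 and 2 adaptors higher, edgeR gave 0 target genes lower, and no filter gave 5 ligands higher. The replicate numbers gave no sign of pairing: correlations of same-numbered deviations were -0.085, -0.055 and 0.054, and no library with number 1 or 2 correlated best with its own number. With 3 libraries per group, whose deviations from the group mean depend on each other, this check cannot exclude pairing. With the replicate block, Bcl3 was called (0.53, adjusted p = 0.0498), 1 receptor was higher and 0 adaptors were called in either direction.

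Leaving out single libraries gave 597 to 1389 higher and 518 to 1333 lower genes in all, and 0 to 2 of the 10 higher. Tnf ranged from 1.09 to 1.73, Birc3 from 0.37 to 0.48, Nfkbia from -0.1132 to 0.0452 and Tnip1 from -0.0875 to 0.021. Per list, 1 to 3 ligands were higher, 0 to 2 receptors higher and 0 to 5 lower, 0 to 1 adaptors higher and 0 to 1 lower, 0 to 1 IkB genes higher, 1 to 2 feedback genes higher and 0 to 2 lower, and 5 to 10 target genes higher and 0 to 1 lower. With few reads, such as 70 of Tnf in untreated skin, depth limits the precision.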
